A study of Mus musculus with 6 samples.

Results

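The genes described here are 10 transcription factors of the myeloid fate network around PU.1: Spi1, which encodes PU.1, and Gfi1, Gfi1b, Irf8, Klf4, Runx1, Myb, Ikzf1, Etv6 and Lmo2. They were chosen by name as partners and antagonists of C/EBPα in granulocyte, monocyte and early progenitor fate. Their values were not part of that rule, but earlier results of these data were known. Each was read by 1 row of the array that names that gene alone, and together they are 10 of 19938 genes measured. The samples were LSK CD150- cells, an early fraction of blood progenitors sorted from mouse bone marrow by surface markers. The Cebpa-deleted group was 3 Cebpafl/fl;Mx1Cre mice and the control group 3 Cebpafl/fl mice. All 6 carried the floxed Cebpa allele and were given pIpC, a double-stranded RNA that switches on the interferon-inducible Mx1 promoter of the Cre transgene, and cells were taken at day 18. Controls had no Cre, so the effects of the Cre transgene and of the loss of Cebpa cannot be told apart, and Mx1Cre acts in many cell types besides blood progenitors. The labels give no ages. Each mouse was hybridised to its own Affymetrix Mouse Gene 1.0 ST array, and all levels are the authors' deposited log2 intensities.

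Blood progenitors choose a lineage through transcription factors that bind together at some genes and oppose each other at others. PU.1 drives the monocyte and lymphoid programmes and, with C/EBPα, the early granulocyte and monocyte progenitor. Gfi1 opposes PU.1 and favours neutrophils, while Irf8 and Klf4 favour monocytes. Runx1, Myb, Ikzf1, Etv6 and Lmo2 act earlier, in stem cells and uncommitted progenitors.

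Cebpa itself read 6.37, 5.82 and 6.09 in the Cebpa-deleted mice, against 7.84, 7.85 and 7.73 in the controls, a log2 difference of -1.71 ± 0.14 (SE, limma adjusted p = 0.000883). No source used here says whether its probes lie in the deleted part, so this checks the labels only in that measure. Median intensities lay between 6.16 and 6.20 on Cebpa-deleted arrays and between 6.22 and 6.23 on control arrays. The progenitor markers Kit and Cd34 were bright on all 6 arrays (9.23 to 11.34 in Cebpa-deleted samples and 10.02 to 11.62 in controls), and Slamf1, which encodes CD150, was dim (3.94 to 4.86 in Cebpa-deleted samples and 3.48 to 3.93 in controls). Ly6a, which encodes Sca-1, had no row naming it alone. The labels call the mice female, but Kdm5d and Eif2s3y, which are Y-linked, read 8.04 to 8.28 in Cebpa-deleted samples and 8.13 to 8.49 in controls, and Xist, the X-inactivation RNA of female cells, read 4.64 to 5.02 in Cebpa-deleted samples and 4.46 to 5.13 in controls. The libraries therefore go against that label in both genotypes alike.

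None of the 10 factors changed at an adjusted p under 0.05 in limma, a moderated linear model fitted over all genes, where 1.43% of genes were called. At an unadjusted p under 0.05 there were 2, Spi1 and Lmo2, or 20% of the factors against 15.9% of all genes. Their log2 differences, Cebpa-deleted minus control, ran from -0.54 for Lmo2 to 0.30 for Spi1, with standard errors between 0.097 and 0.18. All 10 of the 95% intervals lay inside a 2-fold change in either direction, as did those of 97.5% of all genes. The median difference of the factors was -0.080, against 0.029 over all genes. The 3 arrays of one genotype did not overlap those of the other for 4 factors, Spi1 and Gfi1b (higher in Cebpa-deleted samples) and Ikzf1 and Lmo2 (lower), where 21.2% of all genes showed such a gap. All 10 read at or above the median gene, from 6.51 for Klf4 to 10.15 for Myb averaged over the 6 arrays. Every array read a pool of sorted cells, so fewer cells that express a gene and less RNA per cell cannot be told apart.

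**Figure D1:**
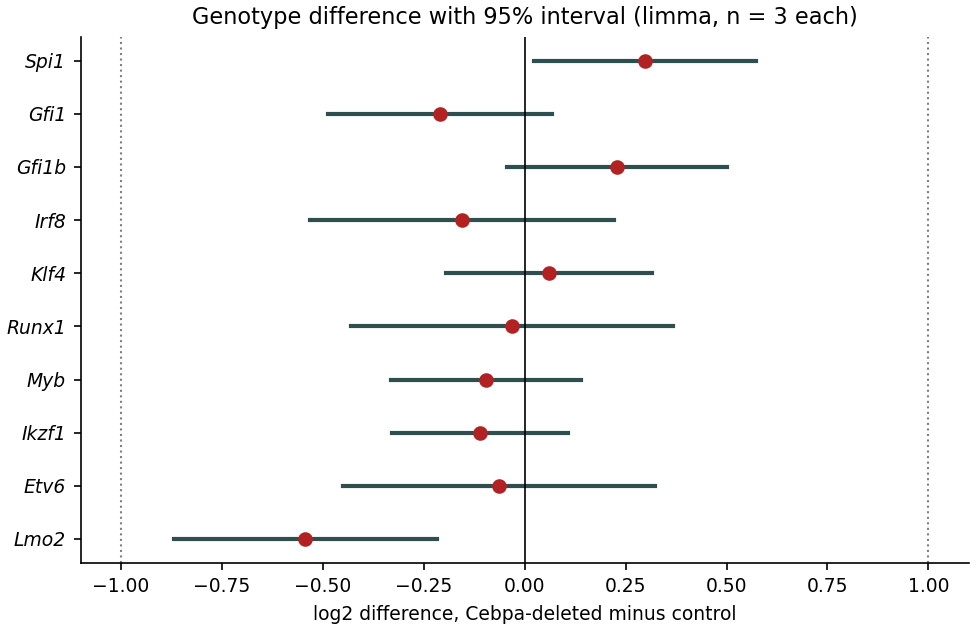
Log2 difference (Cebpa-deleted minus control) of the 10 factors on the horizontal axis, with points for the estimate and lines for the 95% interval from limma (n = 3 each). Dotted lines mark a 2-fold change, which none of the lines reaches. The lines of Spi1 and Lmo2 alone do not cross 0, before adjustment over all genes.

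Spi1 was the factor with the highest difference. Its log2 level was 8.13, 8.54 and 8.32 in the Cebpa-deleted mice, against 8.07, 7.97 and 8.04 in the control mice. All Cebpa-deleted arrays lay above all control arrays, but the gap between the groups was only 0.053, and Cebpa-deleted a sat almost at the controls. The log2 difference was 0.30 ± 0.12 (SE, 95% interval 0.023 to 0.57), a 1.23-fold higher mean, with a limma adjusted p of 0.274. The spread was wider in Cebpa-deleted samples, at 8.33 ± 0.21, than in controls, at 8.03 ± 0.053 (SD, n = 3 each). Without Cebpa-deleted b the difference was 0.19, over 1.5 times smaller.

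Irf8 and Klf4, the monocyte factors that act with and after PU.1, did not pass either. Irf8, an interferon regulatory factor that PU.1 recruits to shared DNA sites, read 7.03, 7.15 and 6.60 in Cebpa-deleted samples, against 6.88, 7.03 and 7.35 in controls. The groups overlapped, and the spread within each (SD 0.29 in Cebpa-deleted samples and 0.24 in controls) exceeded the log2 difference of -0.16 ± 0.17 (SE, limma adjusted p = 0.719). Klf4, a zinc finger factor of monocyte differentiation, read 6.34, 6.64 and 6.64 in Cebpa-deleted samples, against 6.46, 6.52 and 6.46 in controls. Its log2 difference was 0.060 ± 0.11 (SE, limma adjusted p = 0.853), and Cebpa-deleted arrays lay on both sides of the controls. It was 0.0081 without Cebpa-deleted c, 0.011 without Cebpa-deleted b and 0.16 without Cebpa-deleted a. Klf4 was the dimmest of the 10, near the 6.20 median of all deposited values, so background may take up part of its signal.

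**Figure D2:**
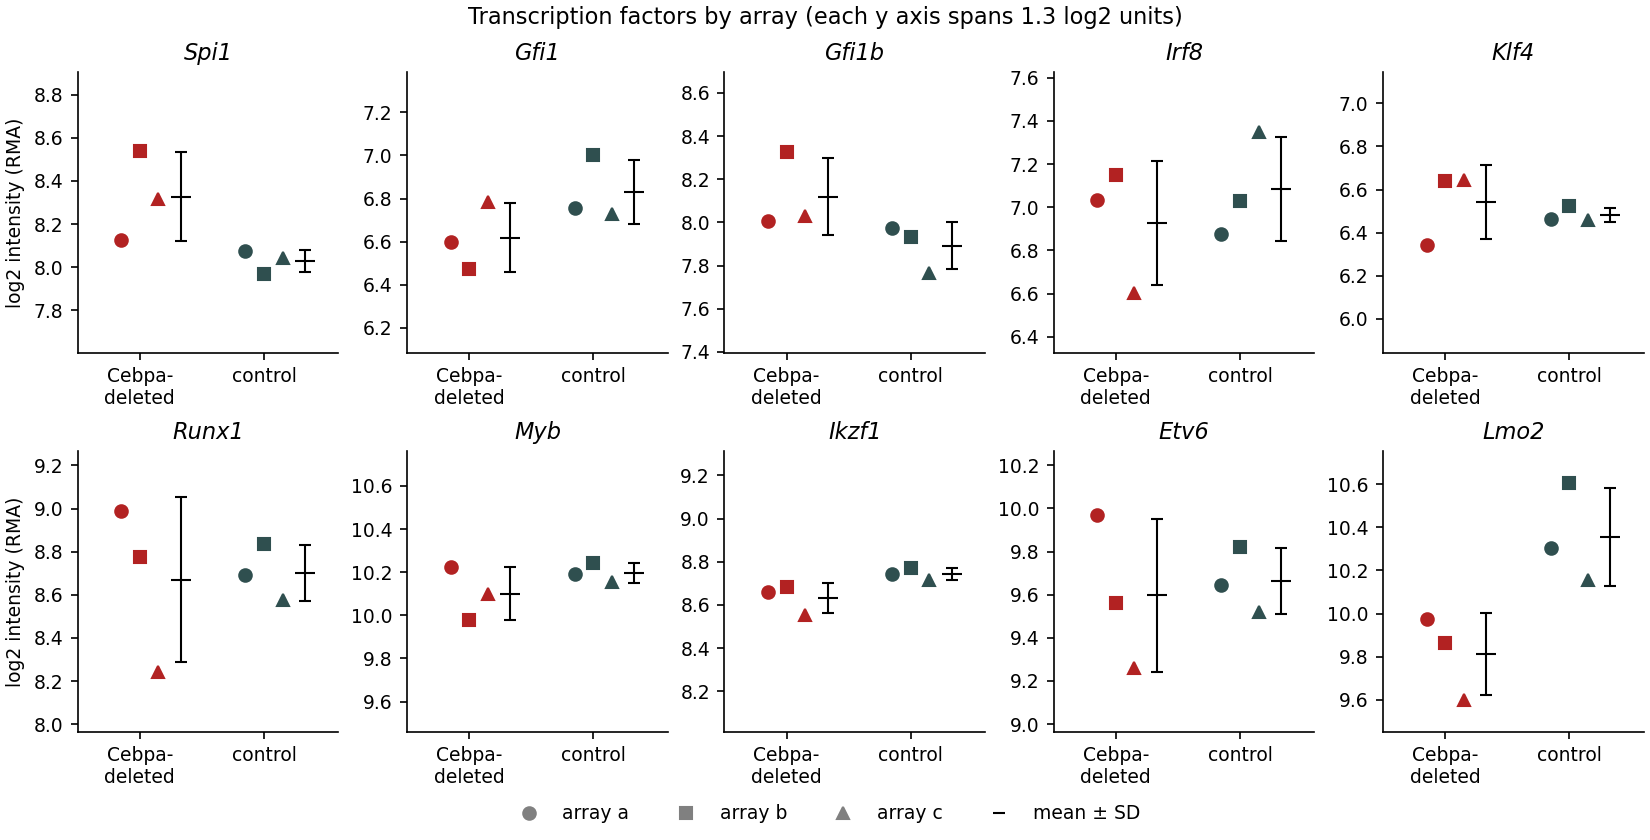
Deposited log2 intensity of each factor (vertical axes, each spanning 1.3 log2 units) in the 3 Cebpa-deleted and the 3 control arrays. Symbols give the array's letter, which no source used here says pairs mice, and bars the mean ± SD. The groups are apart for Spi1, Gfi1b, Ikzf1 and Lmo2, and the Cebpa-deleted arrays are the more scattered for all factors but Lmo2.

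Gfi1 and Gfi1b are close relatives: both are zinc finger repressors that recruit the demethylase LSD1 through the same short motif and bind the same DNA sequence. Gfi1 serves neutrophil and lymphoid development and limits PU.1, while Gfi1b serves the erythroid and platelet lineages, and each can repress the other's gene. The 150 bases upstream of each gene's start are shown, 5′ to 3′ on the transcribed strand, as RefSeq gives them for GRCm38.p6. Gfi1 lies on the minus strand at chr5:107725806-107725955 and Gfi1b on the minus strand at chr2:28621983-28622132. Capitals mark the motif matches found in them.
Gfi1: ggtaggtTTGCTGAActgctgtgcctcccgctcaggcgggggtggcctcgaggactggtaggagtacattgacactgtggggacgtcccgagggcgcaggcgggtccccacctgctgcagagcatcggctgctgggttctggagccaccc
Gfi1b: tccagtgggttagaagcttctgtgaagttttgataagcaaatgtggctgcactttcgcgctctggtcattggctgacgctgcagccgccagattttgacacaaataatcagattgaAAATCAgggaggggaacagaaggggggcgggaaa

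The capitals in Gfi1 begin 143 bases before the start and match TTNNGCAA, a C/EBP pattern, on its opposite strand (TTGCNNAA). Those in Gfi1b begin 34 bases before it and match AAATCA, a pattern of Gfi1 and Gfi1b. The search covered 250 bases upstream of 12 starts of 8 factors, on both strands and with no overlap between matches of different motifs. Promoters of Spi1 and Lmo2 were not used here. The C/EBP pattern occurred in 1 of the 12 windows, against 9.56% of all windows, and AAATCA in 5 windows (Gfi1b, both of Irf8, Ikzf1 and Etv6), against 12.4% of all windows. The PU.1 core GAGGAA occurred in 1 window, of Runx1 (23.3% of all windows), and the RUNX pattern TGTGGT (14% of all windows) and the GATA pattern AGATAA (9.99%) in 0. These matches describe letters in a window, not binding.

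Gfi1 read 6.60, 6.47 and 6.79 in Cebpa-deleted samples, against 6.76, 6.9998 and 6.73 in controls. Cebpa-deleted c lay above controls a and c, so the groups overlapped, and the log2 difference of -0.21 ± 0.12 (SE) had a limma adjusted p of 0.459. Gfi1b read 8.005, 8.32 and 8.03 in Cebpa-deleted samples, against 7.97, 7.93 and 7.77 in controls. Here the groups did not overlap, by a gap of 0.032, and the log2 difference of 0.23 ± 0.12 (SE) had a limma adjusted p of 0.409. Neither gene can be said to have changed. The difference of Gfi1 was -0.12 without control b and -0.14 without Cebpa-deleted b, and that of Gfi1b was 0.12 without Cebpa-deleted b, each over 1.5 times smaller.

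The difference between 2 factors on the same array was compared between genotypes for 5 pairs with an exact two-sided permutation test. Each shift equals the log2 difference of the first factor minus that of the second, so opposite signs alone make it larger than either. With 3 arrays against 3 the smallest possible p of the test is 0.1, so it cannot pass 0.05. It therefore cannot show that antagonists moved against each other. For Spi1 minus Gfi1 the log2 value was 1.53, 2.07 and 1.53 in Cebpa-deleted samples, against 1.32, 0.97 and 1.31 in controls. The groups did not overlap, and the shift of 0.51 towards Spi1 reached that smallest p (exact p = 0.1, adjusted over the 5 pairs 0.25). For Gfi1 minus Gfi1b the value was -1.41, -1.85 and -1.24 in Cebpa-deleted samples, against -1.22, -0.93 and -1.04 in controls. These did not overlap either, with a shift of -0.44 (exact p = 0.1, adjusted 0.25). The separation for Gfi1 and Gfi1b was narrow, since Cebpa-deleted c and control a differed by less than the spread within a group. Without Cebpa-deleted b the shifts were 0.33 and -0.26, each over 1.5 times smaller. Both pairs share Gfi1, so they are not separate observations. Spi1 and Gfi1b were each apart between genotypes on their own, as were 21.2% of all genes. The share of other gene pairs that are apart was not computed.

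The other 3 pairs overlapped between genotypes. Irf8 minus Gfi1 shifted by 0.055 (exact p = 0.9, adjusted 0.9) and Irf8 minus Klf4 by -0.21 (exact p = 0.6, adjusted 0.75). The second was -0.00095 without Cebpa-deleted c, -0.072 without control c and -0.37 without Cebpa-deleted a. Spi1 minus Gata2, where Gata2 is a stem cell, mast cell and erythroid factor that opposes PU.1, shifted by 0.17 (exact p = 0.6, adjusted 0.75). Gata2 alone averaged 7.67 ± 0.21 in Cebpa-deleted samples and 7.54 ± 0.066 in controls (SD, n = 3 each), with a limma adjusted p of 0.679.

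**Figure D3:**
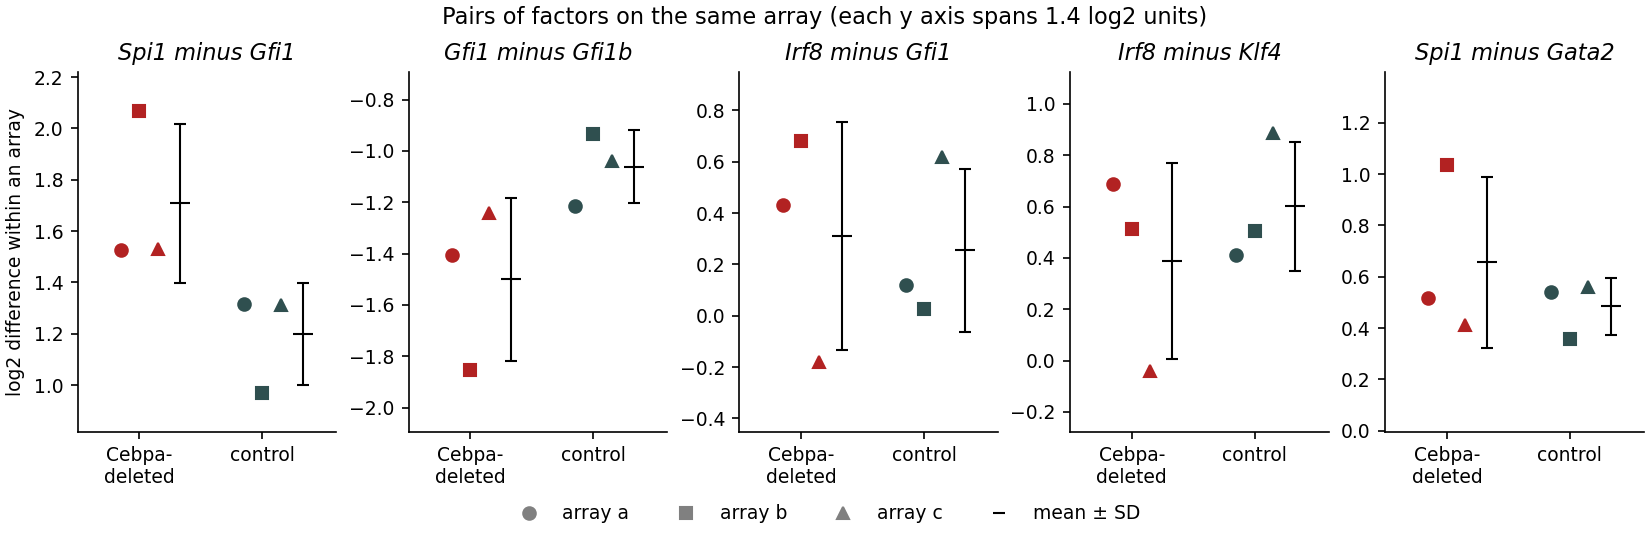
Log2 level of one factor minus that of another on the same array (vertical axes, each spanning 1.4 log2 units) for 5 pairs, with symbols for arrays and bars for the mean ± SD. Only the difference between genotypes is meaningful, since the levels of different probe sets are not on a common scale. Genotypes are apart for Spi1 minus Gfi1 and for Gfi1 minus Gfi1b, but the share of other gene pairs that are apart was not computed.

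Among the factors of stem cells and early progenitors, Lmo2 stood closest to a call. Lmo2 encodes a LIM-domain bridge that holds Tal1 or Lyl1, Gata factors and Ldb1 in a DNA-binding complex. Its log2 level was 9.97, 9.86 and 9.60 in Cebpa-deleted samples, against 10.31, 10.60 and 10.16 in controls. The groups did not overlap and lay 0.18 apart. The log2 difference was -0.54 ± 0.15 (SE, 95% interval -0.87 to -0.22), a mean 1.46-fold lower in Cebpa-deleted samples, and the limma adjusted p of 0.106 missed the threshold. Under the 14 alternatives it lay between -0.64 and -0.42, with limma adjusted p between 0.0701 and 0.298. Other priors, the filter on dim genes, the mean of rows and the letters as a block could not change this difference. Only the other scalings and leaving out arrays could.

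The partners of Lmo2 were picked with their values in view. None of those below passed, and their differences had both signs. Ldb1, the dimerising scaffold of the complex, averaged 9.06 ± 0.23 in Cebpa-deleted samples and 9.38 ± 0.12 in controls (SD, n = 3 each), with a limma adjusted p of 0.283. For Lyl1, a basic helix-loop-helix factor of stem cells, the log2 difference was -0.32 ± 0.16 (SE, limma adjusted p = 0.389). For its relative Tal1 the log2 difference was 0.20 ± 0.10 (SE, limma adjusted p = 0.391), and for Gata1, the erythroid factor, 0.29 ± 0.11 (SE, limma adjusted p = 0.265). Tal1 and Gata1 were higher in all Cebpa-deleted arrays than in any control, as were 12.5% of all genes, and neither passed the test.

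Runx1, the DNA-binding subunit of core binding factor, read 8.99, 8.78 and 8.24 in Cebpa-deleted samples, against 8.69, 8.84 and 8.58 in controls. The Cebpa-deleted arrays spanned the controls on both sides, with an SD of 0.38 against 0.13, and the log2 difference was -0.032 ± 0.18 (SE, limma adjusted p = 0.952). Etv6, an ETS-family repressor needed by adult stem cells, had the same shape, with 9.97, 9.56 and 9.26 in Cebpa-deleted samples, against 9.65, 9.82 and 9.52 in controls. Its log2 difference was -0.065 ± 0.17 (SE, limma adjusted p = 0.900). These intervals still allow changes of up to -0.43 or 0.37 for Runx1 and -0.45 or 0.32 for Etv6 on the log2 scale.

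Myb, which sustains proliferation of immature cells, was one of the brightest genes, at the percentile 97.03 of mean level. It read 10.23, 9.98 and 10.10 in Cebpa-deleted samples, against 10.19, 10.24 and 10.15 in controls. The groups overlapped because Cebpa-deleted a lay within the controls, and the log2 difference was -0.096 ± 0.11 (SE, limma adjusted p = 0.722). It was -0.034 without Cebpa-deleted b and -0.16 without Cebpa-deleted a. Ikzf1, which encodes the zinc finger protein Ikaros of lymphoid and myeloid progenitors, was the most even of the 10. It read 8.66, 8.68 and 8.56 in Cebpa-deleted samples, against 8.74, 8.77 and 8.72 in controls. Although no Cebpa-deleted array reached the lowest control, the log2 difference was only -0.11 ± 0.097 (SE, limma adjusted p = 0.638). It was -0.072 without Cebpa-deleted c and -0.063 after median centring.

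Most of the 10 factors varied more among Cebpa-deleted mice than among controls. The SD was larger in Cebpa-deleted samples than in controls for 9 of the 10 factors, Lmo2 being the exception, and for 55.2% of all genes. Cebpa-deleted c was the lowest of the 6 arrays for 5 factors, Irf8, Runx1, Ikzf1, Etv6 and Lmo2, and for 16.1% of all genes. Control b was the highest of the 6 for 4 factors, Gfi1, Myb, Ikzf1 and Lmo2, and for 14% of all genes. The factors share the arrays, so these counts are not independent of each other. Without Cebpa-deleted c, the log2 differences of Irf8 (0.0072), Runx1 (0.18) and Etv6 (0.10) turned positive, with limma adjusted p of 0.992, 0.619 and 0.849.

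A few relatives of the factors passed the test. All lists of genes here were written with earlier results of these data known, so their counts beside all genes are description only. Of 23 measured relatives in the Runx, Ikaros, Myb, Irf, Klf and Lmo families, 2 rose and 0 fell over all genes tested, where 0.702% of genes were called higher. In limma 6 of the 23 had an unadjusted p under 0.05, against 15.9% of all genes. Runx3, a relative of Runx1 known for T cell and natural killer cell programmes, read 8.96, 9.04 and 8.93 in Cebpa-deleted samples, against 8.34, 8.25 and 8.21 in controls. The arrays within each genotype lay close together and the groups far apart, and Runx3 rose 1.64-fold (log2 0.71 ± 0.099 SE, limma adjusted p = 0.0119). Its adjusted p was 0.0573 without Cebpa-deleted b and 0.0576 without control b. Whether Runx3 and Runx1 differ from each other in their response was not tested.

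Klf7, a relative of Klf4, rose 1.68-fold (log2 0.75 ± 0.13 SE, limma adjusted p = 0.0308). It read 7.86, 7.82 and 7.70 in Cebpa-deleted samples, against 6.78, 7.12 and 7.23 in controls. The groups did not overlap, but leaving out any single array other than control c ended the call, with adjusted p of up to 0.101. The median difference of this list was 0.0055 on the log2 scale, against 0.029 over all genes.

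Of 18 measured ETS relatives of PU.1 and Etv6, 0 rose and 1 fell, where 0.732% of all genes were called lower. In limma 5 of the 18 had an unadjusted p under 0.05, against 15.9% of all genes. Etv5, an ETS activator downstream of growth factor signalling, read 5.80, 5.68 and 5.04 in Cebpa-deleted samples, against 7.40, 6.94 and 6.75 in controls. It fell by 1.53 ± 0.22 on the log2 scale (SE, limma adjusted p = 0.0132), and in Cebpa-deleted samples it read lower than the median of all deposited values, 6.20. The mean of all its rows fell by 0.94, so the rows of this gene disagree in size, and without control b the adjusted p was 0.0548. The list median was 0.014.

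None of 27 measured cofactors and binding partners passed in limma, while 7 of the 27 had an unadjusted p under 0.05, against 15.9% of all genes. The list median was 0.081, against 0.029 over all genes. The smallest p belonged to Hdac2, a histone deacetylase of repressor complexes (log2 0.31 ± 0.10 SE, adjusted p = 0.181), and Jun, an AP-1 subunit that PU.1 can bind (log2 0.49 ± 0.17 SE, adjusted p = 0.190). A further pair of partners was picked with the values in view. Kdm1a, which encodes the LSD1 that Gfi1 proteins recruit, averaged 9.62 ± 0.10 in Cebpa-deleted samples and 9.33 ± 0.038 in controls (SD, n = 3 each), with a limma adjusted p of 0.197. Cbfb, the partner subunit of Runx1, averaged 9.85 ± 0.11 in Cebpa-deleted samples and 9.51 ± 0.28 in controls (SD, n = 3 each), with a limma adjusted p of 0.304.

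**Figure D4:**
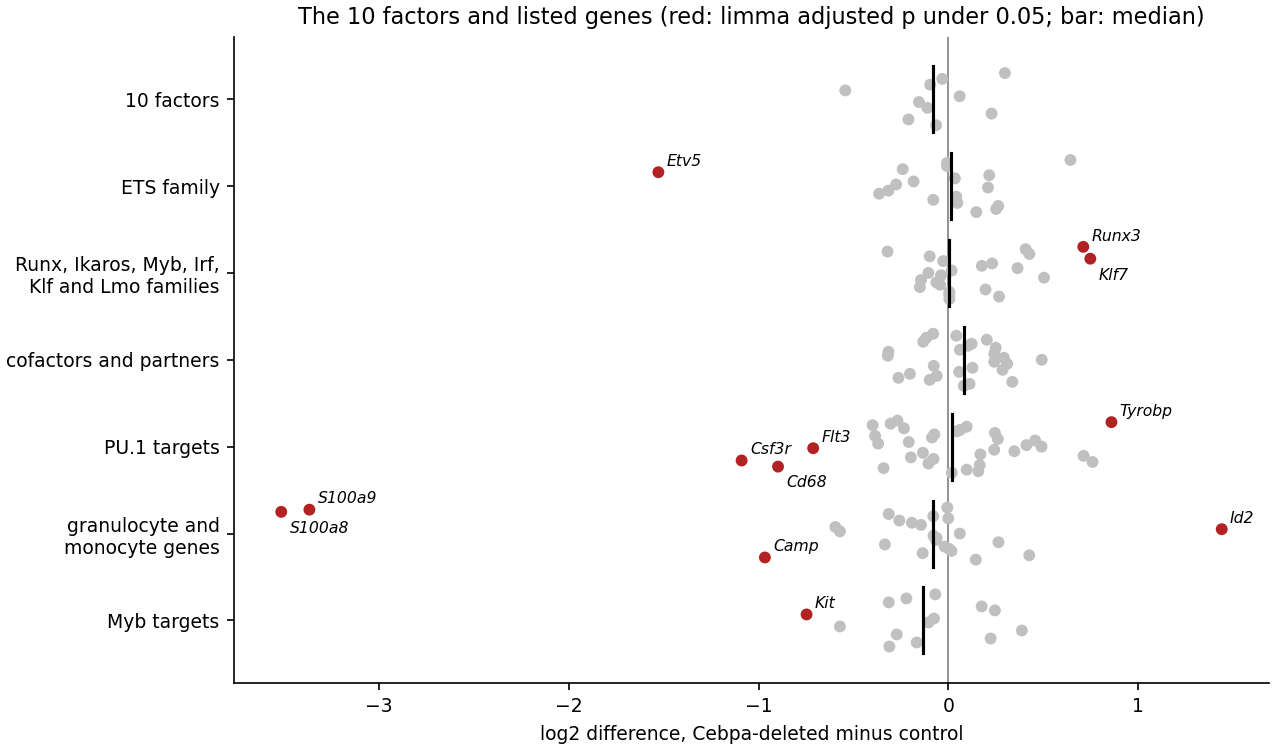
Log2 difference (Cebpa-deleted minus control, horizontal axis) of the 10 factors and of 6 lists of related genes, 1 point per measured gene, with vertical bars for medians. Red points passed an adjusted p under 0.05 in limma. The factors and the list of cofactors and partners hold no red point, and the other lists hold up to 4 each. Over all genes 1.43% passed.

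Genes listed as targets of these factors changed in both directions. Whether the factors or the loss of Cebpa changed them was not tested. Of 35 measured PU.1 target genes of myeloid cells, 1 rose and 3 fell, where 0.702% of all genes were called higher and 0.732% lower. In limma 13 of the 35 had an unadjusted p under 0.05, against 15.9% of all genes. The arrays of the genotypes did not overlap for 15 of the 35, against 21.2% of all genes. The list median was 0.018, against 0.029 over all genes. Tyrobp, an adaptor of immune receptors, read 11.61, 11.51 and 11.15 in Cebpa-deleted samples, against 10.55, 10.51 and 10.62 in controls. Cd68, a lysosomal protein of macrophages, read 6.98, 7.05 and 7.09 in Cebpa-deleted samples, against 7.99, 7.996 and 7.83 in controls. Thus 2 genes of the same list rose by 0.86 ± 0.13 and fell by 0.90 ± 0.10 on the log2 scale (SE, limma adjusted p = 0.0165 and 0.00520). The others that fell were Csf3r, the G-CSF receptor (-1.09 ± 0.20 SE, adjusted p = 0.0376), and Flt3, a cytokine receptor of early progenitors (-0.71 ± 0.14 SE, adjusted p = 0.0469). Tyrobp lost its call without Cebpa-deleted a or b or control a or b (adjusted p up to 0.0791), Csf3r without any array but Cebpa-deleted a (up to 0.130), and Flt3 without any array but Cebpa-deleted c (up to 0.145) and under quantile, median and cyclic loess scaling.

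Of 25 measured genes of the granulocyte and monocyte programmes set by Gfi1, Irf8, Klf4 and Egr factors, 1 rose and 3 fell, against the same 0.702% and 0.732% of all genes. In limma 8 of the 25 had an unadjusted p under 0.05, against 15.9% of all genes. The list was written with earlier results of these data known, so no excess can be read from its counts. Id2, an inhibitor of E proteins that Gfi1 is known to repress, read 6.76, 6.99 and 7.51 in Cebpa-deleted samples, against 5.68, 5.85 and 5.40 in controls, and rose 2.71-fold (log2 1.44 ± 0.19 SE, limma adjusted p = 0.0108). The genes that fell were the neutrophil genes S100a8 (log2 -3.51 ± 0.13 SE), S100a9 (-3.37 ± 0.17) and Camp (-0.97 ± 0.16), with limma adjusted p of 2.2e-06, 3.0e-05 and 0.0230. Camp lost its call without control a or c or Cebpa-deleted b or c (adjusted p up to 0.0915). The list median was -0.078, against 0.029 over all genes. Of 12 neutrophil markers 4 fell and 0 rose, all named above (S100a8, S100a9, Camp and Csf3r), with a median of -0.30. The mean log2 level of the 12 was 5.31 to 5.38 on Cebpa-deleted arrays and 6.11 to 6.17 on control arrays. That of the 8 markers that did not pass was 4.95 to 5.10 on Cebpa-deleted arrays and 5.03 to 5.20 on control arrays, so these overlapped. Ly6g, a surface marker that defines mature neutrophils, read 3.54 to 3.71 in Cebpa-deleted samples and 3.49 to 4.76 in controls, among the dimmest genes. The part of neutrophil RNA in these results was not tested. The Egr genes, antagonists of Gfi1 in the PU.1 circuit and picked after their values were seen, hardly differed: Egr1 by -0.062 ± 0.10 (SE, limma adjusted p = 0.831) and Egr2 by -0.078 ± 0.10 (SE, limma adjusted p = 0.776).

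Of 14 measured Myb target genes, 0 rose and 1 fell, where 0.732% of all genes were called lower. In limma 6 of the 14 had an unadjusted p under 0.05, against 15.9% of all genes. The list median was -0.14, against 0.029 over all genes. Kit, the receptor of stem cell factor, read 9.59, 9.37 and 9.23 in Cebpa-deleted samples, against 10.02, 10.31 and 10.10 in controls. The groups did not overlap, and Kit fell 1.68-fold (log2 -0.75 ± 0.13 SE, limma adjusted p = 0.0270). Kit was also a marker of the sort, and its call was lost without any single array other than Cebpa-deleted a (adjusted p up to 0.101).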

How the data were processed

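Per the labels' protocols, RNA of sorted cells was amplified, biotin-labelled and hybridised to 1-colour arrays, 1 per mouse. The files deposited by the authors hold 1 log2 value per probe set and array. Per the submitters' processing notes, the tools were RMA and Affymetrix Expression Console 1.1.2. The settings are not stated in any source used here. No detection calls were used, and precision is limited by the number of arrays.

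Of 35556 rows, 21789 name 1 gene in the platform annotation, 1621 several and 12146 are unnamed here. The brightest row of each gene was kept, giving 19938 genes. All 10 factors matched a RefSeq table of GRCm38.p6. The test between genotypes was that of limma 3.58.1, run in R 4.3.3 (two-sided, Benjamini-Hochberg over all genes, threshold 0.05, prior with 5.52 degrees of freedom), and the script was tested on simulated data. Pairs of factors were compared by exact permutation. Figures used matplotlib 3.10.9.

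The factors and the lists (6 of related genes, 10 of markers, written from general knowledge) were chosen with earlier results of these data known. Lists are described by counts and medians, with no list test. The text names all 10 factors, Cebpa, every listed gene that passed, in the 6 lists of related genes otherwise the 2 with the smallest p, and the 3 genes most like Spi1, and says where others were picked later. No source used here says that array letters pair mice, so they were not treated as pairs. Deviations from genotype means correlated at -0.011, -0.039 and 0.061 for same letters and between -0.10 and 0.11 for different letters. With so few arrays these values cannot decide whether letters pair mice.

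The alternatives were other priors, 3 other scalings, a filter on dim genes, the mean of a gene's rows, array letters as a block, a threshold of 0.1 and leaving out each array.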

Additional observations from a re-analysis of the deposited data

How the results depend on the processing

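None of the 10 factors was called at an adjusted p under 0.05 under any of the 14 alternatives to the fit over all genes. In the unaltered fit none was called at an adjusted p under 0.1 either. Lmo2 did fall under 0.1 in some of the alternatives, with a lowest limma adjusted p of 0.0701 when dim genes were left out. Spi1, Gfi1, Gfi1b, Klf4, Myb, Ikzf1 and Lmo2 kept their sign throughout. Only the other scalings and leaving out arrays could change a sign, since the remaining alternatives leave the factors' differences as they are. Runx1 turned positive under median centring (0.016), where the median of all genes was 0.077. When single arrays were left out, the log2 difference ranged from -0.27 to 0.0072 for Irf8, from -0.19 to 0.18 for Runx1 and from -0.25 to 0.10 for Etv6. The shift then ranged from -0.13 to 0.30 for Irf8 minus Gfi1, from -0.37 to -0.00095 for Irf8 minus Klf4 and from -0.019 to 0.29 for Spi1 minus Gata2. The count of changed genes, 286 with all arrays, then ranged from 53 (without control b) to 250, and was 438 with all arrays when dim genes (mean under that of the median gene) were left out. When single arrays were left out, counts of changed genes ranged from 0 to 2 for ETS relatives, from 0 to 2 for relatives of the other factors, from 1 to 3 for PU.1 targets (4 with all arrays, and 5 without dim genes) and from 0 to 1 for Myb targets. Without dim genes 0 ETS relatives were called, since Etv5 was then not tested. Of all calls 49.0% were higher in Cebpa-deleted samples, against 61.6% after quantile normalization and 65.8% after median centring. With array letters as a replicate block, 274 genes and 0 factors were called, the relatives of the other factors held 1 call in place of 2 because Klf7 had an adjusted p of 0.0504, and the adjusted p of Lmo2 was 0.0824. The cause of these differences was otherwise not tested. Background may take up part of the signal of Klf4, Gfi1 and genes below them in intensity, but it was not measured.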

Other observations

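The surface protein gene Cd48, found on multipotent progenitors more than on stem cells, rose 2.01-fold (log2 1.00 ± 0.11 SE, limma adjusted p = 0.00520). Together with the falls of Kit and Flt3, it made 1 rise and 2 falls among 5 measured markers of LSK cells. Over all genes 0.702% were called higher and 0.732% lower. The marker lists were also written with earlier results of these data known, so their counts are description only. Of 10 genes of mast cells and basophils, 2 rose and 0 fell: Cpa3, a granule carboxypeptidase (log2 3.47 ± 0.12 SE, adjusted p = 2.2e-06), and Gzmb, a granule protease (2.20 ± 0.43 SE, adjusted p = 0.0438). The median of that list was 0.10, and the mean log2 level of the 8 genes that did not pass was 5.66 to 5.85 in Cebpa-deleted samples and 5.70 to 5.79 in controls. The calls of Cd48 and Cpa3 held under all 14 alternatives, and that of Gzmb under 8.

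No gene passed in limma among 8 monocyte and macrophage, 10 dendritic cell, 7 erythroid, 6 megakaryocyte, 7 B cell and 8 T and natural killer cell markers, with 1, 2, 2, 2, 1 and 1 genes at an unadjusted p under 0.05, a mark that 15.9% of all genes reached. Of 11 genes of the type I interferon response, which pIpC induces, 0 passed in limma and 5 had an unadjusted p under 0.05 (15.9% of all genes), with a median log2 difference of 0.16 against 0.029 over all genes.

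Profiles like that of Spi1 were sought among 9457 genes with a descriptive name, at or above the median of mean level. Over the 6 arrays, each gene centred on its own mean, the nearest were Rogdi, Ddx51 and Hsd17b7. Their root mean square differences from Spi1 were 0.044, 0.048 and 0.049 log2 units, while Spi1 itself varied by 0.19 about its mean. How near the closest of so many genes would lie by chance was not tested.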
